A study of Homo sapiens with 8 samples.

Results

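The hepatic bile acid and drug transporters examined here are 9 genes, 4 for uptake from the blood (SLCO1B1, SLCO1B3, SLCO2B1 and SLC10A1) and 5 for export (ABCB4, ABCB11, ABCC2, ABCC3 and ABCC6). They were chosen by gene name, and 7 of the 9 were found among the 16040 gene names of one deposited table and the 14955 of the other. SLC10A1 (NTCP, the sodium-dependent bile acid uptake carrier) and ABCB11 (BSEP, the canalicular bile salt pump) were listed in neither table. By the rule used, they lay below the limit of the tables, in which every transcript summed to at least 10 counts over 4 libraries.

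RNA was sequenced from Hep3B, a human hepatocellular carcinoma line, in 8 libraries, 2 in each of 4 groups. All cells grew in MEM with fetal bovine serum. The first table held Hep3B cells of wild-type genotype and Hep3B SOX4-/- cells, in which the transcription factor SOX4 was targeted with CRISPR/Cas9. The study describes 2 such lines, and the labels do not say whether libraries 1 and 2 came from these lines. It reports puromycin in the medium of the SOX4-/- cells and mentions none for Hep3B. Genotype and puromycin therefore cannot be told apart in this comparison. The second table held Hep3B cells transfected with a control siRNA or with STAT6 siRNA. No label says that 2 libraries of a group came from separate cultures, so the p-values below measure the spread between these libraries, which may be technical. The comparisons ask which transporter mRNAs differed when SOX4 or STAT6 was reduced.

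Hepatocytes take up bile acids, bilirubin and drugs across the membrane facing the blood and secrete them across the canalicular membrane into bile. OATP1B1 and OATP1B3, encoded by SLCO1B1 and SLCO1B3, are liver-enriched carriers of bilirubin, conjugated bile acids and many drugs, and OATP2B1, encoded by SLCO2B1, carries sulfated steroids and drugs in liver and intestine. ABCC2 (MRP2) exports conjugated organic anions into bile, ABCC3 (MRP3) exports them back to the blood, ABCB4 (MDR3) moves phosphatidylcholine into bile, and ABCC6 is a basolateral ATP-binding cassette protein of the liver whose loss causes pseudoxanthoma elasticum.

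The sequences upstream of SLCO1B1 and SLCO1B3 are shown because these neighbouring paralogs on chromosome 12 had the most similar promoters of the members compared. SLCO1B1 lies at chr12:21131194-21239796 and SLCO1B3 at chr12:20810705-20916911, both on the plus strand (RefSeq, GRCh38.p14). Each line gives the 250 bases before the annotated start, 5′ to 3′, with capitals marking the nuclear receptor word AGGTCA on either strand, here present once, on the minus strand of SLCO1B3.
SLCO1B1, chr12:21130944-21131193, plus strand: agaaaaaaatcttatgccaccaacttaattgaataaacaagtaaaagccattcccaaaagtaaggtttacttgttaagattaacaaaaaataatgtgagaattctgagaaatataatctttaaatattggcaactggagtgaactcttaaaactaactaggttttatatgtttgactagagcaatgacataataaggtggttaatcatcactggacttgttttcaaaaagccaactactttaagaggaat
SLCO1B3, chr12:20810455-20810704, plus strand: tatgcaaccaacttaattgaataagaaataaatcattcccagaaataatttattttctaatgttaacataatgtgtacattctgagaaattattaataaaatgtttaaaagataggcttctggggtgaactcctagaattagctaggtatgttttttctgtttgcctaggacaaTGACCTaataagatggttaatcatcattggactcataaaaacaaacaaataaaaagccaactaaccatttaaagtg
SLCO2B1, downstream start, chr11:75159582-75159831, plus strand: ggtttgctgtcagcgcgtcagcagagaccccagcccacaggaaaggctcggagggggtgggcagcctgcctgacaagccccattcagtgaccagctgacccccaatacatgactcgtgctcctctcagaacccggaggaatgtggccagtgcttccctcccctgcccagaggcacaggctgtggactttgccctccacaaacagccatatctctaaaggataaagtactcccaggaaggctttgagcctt

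The third line is shown because the transcript from this start carried most SLCO2B1 reads, as described below. RefSeq promoter windows of 300 bases, 250 before and 50 after the start, were matched for 7 of the 9 members, in 9 windows. ABCB4 and ABCC3 had none. In a global alignment the windows of SLCO1B1 and SLCO1B3 were identical at 221 of 341 columns (64.8%), and the other 9 pairs among members with 1 window reached at most 50.7%. The word AGGTCA lay 76 to 71 bases before the start in SLCO1B3 and 149 to 144 bases before it in SLC10A1, and was not in the window of SLCO1B1. Of 34943 promoters of the same length, 13.8% held it. A SOX heptamer (NNCAANG with A or T at each N, 20.4% of all promoters) occurred in ABCB11 and, after the start, in ABCC2. Both strands were searched for every motif. The STAT6-type word TTCNNNNGAA (6.46% of all promoters) was in none of the 9 windows. The motif matches describe letters in the windows and no binding was measured here.

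The targeted genes were examined first. SOX4 mRNA was at 728 and 249 CPM (counts scaled to library size, with factors set over all 8 libraries) in Hep3B and at 260 and 271 CPM in the libraries labelled SOX4-/-, so the groups overlapped (log2 fold change -0.83, SE 0.54, adjusted p = 0.372). An edit of the gene need not lower its mRNA, and the SOX4 reads therefore did not check the labels. STAT6 mRNA was lower in the knockout, at 2.42 and 1.98 CPM against 29.1 and 12.4 (log2 fold change -3.18, SE 0.57, adjusted p = 0.0275). With STAT6 siRNA it was at 11.5 and 6.49 CPM against 46.2 and 33.9, with no overlap, but the change did not pass correction (log2 fold change -2.22, SE 0.72, unadjusted p = 0.00834, adjusted p = 1.00). All 10 hepatocyte markers, among them albumin, were at 1 CPM or more in every library. Library totals ranged from 16266282 to 25353113 expected counts. All adjusted p-values are Benjamini-Hochberg values over all genes tested, from the quasi-likelihood test of edgeR.

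SLCO1B1 and SLCO2B1 rose in SOX4 knockout cells, and no export gene passed the test. Adjusted p-values below 0.05 were obtained for 2 of the 7 members, both for uptake and both higher, against a background of 4.5% of 14415 genes called higher and 1.39% called lower. SLCO1B1 passed the filter on low counts only through the knockout libraries, so it could hardly have been called lower, and its direction adds no support. The 2 groups did not overlap, with the knockout higher, for 5 of the 7 members (SLCO1B1, SLCO2B1, ABCB4, ABCC3 and ABCC6), while 28.5% of all genes did so with the knockout higher and 29.7% with it lower. The median log2 fold change of the 7 was 1.47, and that of all genes tested was 0.01, with 50.4% of genes above 0. The members were chosen with earlier results of these data known, so these comparisons with all genes are a description and not an independent test. Hepatocyte markers were higher in the same libraries, at a summed level of 12563 to 16874 CPM in Hep3B and 30556 to 49279 CPM in the knockout, and their part in the transporter results was not tested.

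SLCO1B1 was close to the limit of detection in Hep3B. It had 8 and 3 counts there, or 0.414 and 0.148 CPM, and 192 and 39 counts in the knockout, or 6.36 and 1.93 CPM. Both knockout libraries lay above both Hep3B libraries, and they differed from each other by 3.30-fold. The log2 fold change was 3.93 (SE 0.92, adjusted p = 0.0495). This call stood at the threshold: the adjusted p was 0.0517 without the filter on low counts, and it was 0.0541 without Hep3B library 2, 0.341 without knockout library 1 and 0.133 without knockout library 2.

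SLCO2B1, at chr11:75151107-75206549 on the plus strand, had the highest mean CPM per kilobase of transcript among the uptake genes in every group. It was at 1.29 and 2.82 CPM in Hep3B and at 46.3 and 11.4 CPM in the knockout. The groups did not overlap, and knockout library 1 was 4.06-fold above library 2. The log2 fold change was 3.89 (SE 0.77, adjusted p = 0.0348). It was 2.53 without knockout library 1 (adjusted p = 0.205), 4.53 without library 2 (adjusted p = 0.0605) and 3.44 when corrected for GC content and length by offsets (adjusted p = 0.0559). Leaving out either Hep3B library kept the call.

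SLCO1B3 was not separated between the groups. Its levels were 3.31 and 0.297 CPM in Hep3B, an 11.2-fold difference between libraries of 1 group, and 7.81 and 2.87 CPM in the knockout. The lower knockout library fell below the higher Hep3B library. The log2 fold change was 1.63 (SE 1.02, adjusted p = 0.351). Without Hep3B library 1 it was 4.18 (adjusted p = 0.0165), and without Hep3B library 2 it was 0.74 (adjusted p = 0.547). It was 0.70 without knockout library 1 (adjusted p = 0.839) and 2.17 without knockout library 2 (adjusted p = 0.453), so single libraries of both groups moved this value.

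Among the export genes, ABCB4 and ABCC3 had values above Hep3B in both knockout libraries without passing correction. ABCB4, at chr7:87365896-87476027 on the minus strand, was at 3.42 and 3.17 CPM in Hep3B and at 9.93 and 7.51 CPM in the knockout (log2 fold change 1.47, SE 0.49, unadjusted p = 0.0180, adjusted p = 0.115). In these groups its libraries lay closer together than those of any uptake gene, at 1.08-fold in Hep3B and 1.32-fold in the knockout.

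ABCC3, at chr17:50634881-50692253 on the plus strand, was at 83.7 and 40.5 CPM in Hep3B and at 189 and 110 CPM in the knockout (log2 fold change 1.33, SE 0.48, unadjusted p = 0.0246, adjusted p = 0.135). Without Hep3B library 1 it was 1.91 (adjusted p = 0.0250), without Hep3B library 2 it was 0.88 (adjusted p = 0.259), without knockout library 1 it was 0.87 (adjusted p = 0.548) and without knockout library 2 it was 1.66 (adjusted p = 0.274). Of the 4 export genes tested, 0 were called by edgeR or DESeq2 and 2 had an unadjusted p below 0.05 in edgeR. Of all 14415 genes tested, 3752 had an unadjusted p below 0.05.

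Summed over its transcripts, ABCC6 did not overlap between the groups but its difference was small. The counts of its full-length transcript did overlap, at 624 and 815 in Hep3B and 1711 and 729 in the knockout. This gene, at chr16:16149565-16223494 on the minus strand, was at 37.2 and 43.1 CPM in Hep3B and at 72.8 and 50.4 CPM in the knockout (log2 fold change 0.69, SE 0.36, adjusted p = 0.273). When corrected for GC content and length it was 0.27, and it was 0.38 without knockout library 1 (adjusted p = 0.779) and 0.91 without knockout library 2 (adjusted p = 0.453). ABCC6 shares near-identical sequence with the pseudogenes ABCC6P1 and ABCC6P2, between which reads may be split, so its value is uncertain. ABCC6P1 was at 14.2 and 18.2 CPM in Hep3B and at 43.6 and 21.4 CPM in the knockout (adjusted p = 0.180), and ABCC6P2 was at 1.45 and 1.58 against 8.71 and 5.68 CPM (adjusted p = 0.0537). With the 3 summed, the log2 fold change was 0.88 (adjusted p = 0.190).

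ABCC2 went the other way in its mean and was not separated. This gene, at chr10:99782640-99852594 on the plus strand, was at 55.4 and 158 CPM in Hep3B and at 102 and 36.5 CPM in the knockout, so the ranges overlapped. The log2 fold change was -0.55 (SE 0.62, adjusted p = 0.616), and it turned to 0.37 without Hep3B library 2 (adjusted p = 0.720).

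Each of the 7 members was higher in knockout library 1 than in knockout library 2, by 1.32-fold for ABCB4 to 4.06-fold for SLCO2B1. In Hep3B, 4 members were higher in library 1 and 3 in library 2. Near neighbours of the members gave no call. SLCO1B7, the liver gene between SLCO1B3 and SLCO1B1, had 3 and 6 counts in Hep3B and 4 and 2 in the knockout, too few to test. GENCODE annotates other genes on the same strand over SLCO1B1 and SLCO1B3 and on the opposite strand over SLCO2B1, ABCC2 and ABCC6, so reads there may be shared. The multidrug exporters ABCB1, beside ABCB4, and ABCC1, beside ABCC6, had log2 fold changes of -0.47 (adjusted p = 0.484) and -0.44 (adjusted p = 0.482).

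STAT6 siRNA gave no call among the members. SLCO1B1 was at 0.369 and 0.432 CPM with control siRNA, and it had 0 and 8 counts, or 0 and 0.358 CPM, with STAT6 siRNA. A count of 0 allows up to 0.256 CPM in that library, for counting error only, and the gene was not tested because it fell below the filter on low counts. For each of the 6 members tested the groups overlapped, and 0 were called by edgeR or DESeq2. In the edgeR fit that ignores library number, 0 had an unadjusted p below 0.05. The background was 0% of 13554 genes called higher and 0% called lower, with 14 at an unadjusted p below 0.05, and 3.27% of genes not overlapping on the higher side and 4.41% on the lower side.

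Both uptake genes tested overlapped between the groups. SLCO1B3 was at 0.431 and 1.92 CPM with control siRNA and at 0.341 and 1.21 CPM with STAT6 siRNA (log2 fold change -0.59, SE 0.93). SLCO2B1 was at 22.0 and 11.0 CPM against 33.5 and 11.6 CPM (log2 fold change 0.38, SE 0.76). In both genes the 2 libraries of a group differed by more than the group means did.

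The same held for export. ABCC2 was at 117 and 162 CPM with control siRNA and at 91.5 and 126 CPM with STAT6 siRNA (log2 fold change -0.40, SE 0.57). ABCC3 was at 147 and 98.3 CPM against 169 and 81.4 CPM (log2 fold change -0.04, SE 0.59). ABCC6 was at 96.7 and 50.2 CPM against 118 and 62.3 CPM (log2 fold change 0.24, SE 0.62), and ABCB4 at 1.29 and 3.74 CPM against 1.45 and 4.88 CPM (log2 fold change 0.31, SE 0.86). The adjusted p of each of the 6 members was 1.00. The standard errors of 0.57 to 0.93 come from a fit that ignores library number. With library number as a replicate block they were 0.21 to 0.50, and 0 members were called. With GC and length offsets added to the block, ABCC2 alone had an unadjusted p below 0.05 (log2 fold change -0.23, unadjusted p = 0.0384, adjusted p = 0.328, edgeR). Between same-numbered libraries, ABCC2 and SLCO1B3 were lower with STAT6 siRNA at both numbers. SLCO2B1, ABCB4 and ABCC6 were higher at both, and ABCC3 was mixed. The missing calls do not show equal levels.

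**Figure D1:**
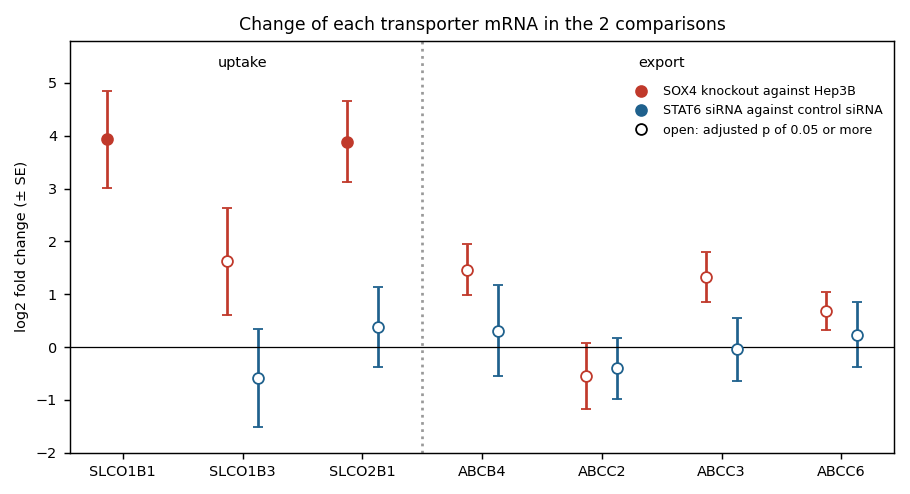
Log2 fold change with its SE (y axis) of each transporter (x axis) in the 2 comparisons, uptake on the left and export on the right. Filled points passed an adjusted p of 0.05 and open points did not. SLCO1B1 and SLCO2B1 are filled in the SOX4 knockout comparison and no point is filled for STAT6 siRNA, where SLCO1B1 was not tested.

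The difference between the changes after SOX4 knockout and after STAT6 siRNA was tested in 1 fit of all 8 libraries. It passed for 0 of the 7 members and for 0.0769% of the 14313 genes tested. SLCO1B1 had a difference of 4.78 on the log2 scale (SE 1.47, unadjusted p = 0.00548, adjusted p = 0.337) and SLCO2B1 of 3.36 (SE 1.08, unadjusted p = 0.00755, adjusted p = 0.375). These were the members with an unadjusted p below 0.05. The calls in the knockout and their absence with STAT6 siRNA were thus not shown to differ.

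Within the siRNA libraries the members split by library number. SLCO1B1, SLCO1B3, ABCB4 and ABCC2, whose transcripts had a GC content of 35.5 to 45.6%, were higher in library 2 of both groups, and ABCC3, ABCC6 and SLCO2B1, at 56.0 to 58.1%, were higher in library 1 of both groups. Over all genes tested, the log2 ratio of library 2 to library 1 had a Spearman correlation with GC content of -0.757 with control siRNA and -0.820 with STAT6 siRNA. It was -0.092 in Hep3B and 0.292 in the knockout. These correlations are across genes (13409 in the siRNA table and 14246 in the other), which share their libraries and are not independent replicates. The part of GC content in the siRNA values was examined only through offsets. When corrected for GC content and length, the 6 siRNA log2 fold changes ranged from -0.28 (SLCO1B3) to 0.43 (ABCB4), and 0 members were called.

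The order of the 4 groups differed between genes. SLCO1B1 was highest in the knockout, apart from all other groups. Hep3B overlapped both siRNA groups, while both control siRNA values (0.369 and 0.432 CPM) lay above both STAT6 siRNA values (0 and 0.358 CPM), at counts too low to test. SLCO1B3 was also highest in the knockout, with no pair of neighbouring groups apart. Its knockout values (7.81 and 2.87 CPM) lay above all siRNA values (at most 1.92 CPM). ABCB4 was highest in the knockout, apart from the other 3 groups, which overlapped.

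SLCO2B1 was lowest in Hep3B, at a mean of 2.06 CPM (SD 1.08, n = 2), apart from control siRNA at 16.5 (SD 7.73, n = 2), STAT6 siRNA at 22.6 (SD 15.5, n = 2) and the knockout at 28.9 (SD 24.7, n = 2), which overlapped. ABCC6 was likewise lowest in Hep3B, apart from the other 3 groups. ABCC3 was lowest in Hep3B, apart from control siRNA and the knockout, but 1 STAT6 siRNA library fell within its range. No neighbouring groups of ABCC2 were apart, although both control siRNA values lay above both knockout values. The siRNA libraries come from a separate table with its own controls, so transfection and table cannot be told apart in these orders, and no test was made across them. The knockout SLCO2B1 level was above its own Hep3B control but overlapped that of control siRNA cells.

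Between genes, levels were compared as CPM per kilobase of transcript. In Hep3B the order was ABCC2 (18.4), ABCC6 (11.7) and ABCC3 (11.5), then SLCO2B1 (0.870), ABCB4 (0.831), SLCO1B3 (0.643) and SLCO1B1 (0.126). In the knockout SLCO2B1 reached 11.1, beside ABCC2 at 11.9, while ABCC6 and ABCC3 led at 29.5 and 27.5, and ABCB4, SLCO1B3 and SLCO1B1 lay together at 2.22, 1.90 and 1.86. The means of ABCC2, ABCC3 and ABCC6 were the highest of the 7 in every group, and in knockout library 1 SLCO2B1 and ABCC2 were level at 17.6 each. Counts were divided by the length of each transcript, so a short ABCC6 transcript of 714 bases weighed heavily. It took 22.2 and 28.6% of the ABCC6 counts in the knockout. The full-length ABCC6 transcript, of 5747 bases, had 1711 and 729 counts in the knockout. The ABCC2 transcript, of 5806 bases, had 3080 and 739 there. The place of ABCC6 ahead of ABCC2 in the knockout thus rested on the short transcript. The full-length transcript was not ranked in the other groups or against SLCO2B1, so the rank of ABCC6 in these orders is uncertain.

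Summed uptake mRNA was small beside summed export mRNA in every library. For each 100 of export, in CPM per kilobase, uptake was 5.01 and 2.92 in Hep3B, 26.8 and 11.7 in the knockout, 9.97 and 7.61 with control siRNA and 13.7 and 7.93 with STAT6 siRNA. The knockout libraries lay above the Hep3B and control siRNA libraries but overlapped the STAT6 siRNA libraries, and the 2 siRNA groups overlapped. Both siRNA groups also lay above Hep3B. No test is given, since 2 libraries against 2 cannot reach 0.05 in a permutation test. The order of the 4 group means was the same without ABCC6 and without scaling by length, but the knockout mean moved from 19.3 to 32.6 without ABCC6 and to 12.1 without length scaling. SLCO2B1 made up 75.8 and 71.0% of the uptake sum in the knockout, 28.8 and 87.3% in Hep3B and 83.9 to 99.1% in the siRNA libraries.

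The transcripts behind 2 of the genes were resolved by the files. Reads of SLCO2B1 were assigned mainly to the transcript that starts at position 75159799, downstream of the first start at 75150987. It took 76.9 and 99.1% of the SLCO2B1 counts in Hep3B, 77.5 and 83.4% in the knockout, 84.4 and 95.7% with control siRNA and 76.4 and 85.1% with STAT6 siRNA. Its level was 0.996 and 2.79 CPM in Hep3B and 35.9 and 9.51 CPM in the knockout. The transcripts from the upstream start were at 0.298 and 0.0260 CPM in Hep3B, which is under 6 counts, and at 10.4 and 1.90 CPM in the knockout. Both sets were thus higher in both knockout libraries than in both Hep3B libraries. The sequence around the downstream start is the third line printed above, in which the start given by the deposited table lies near the 3′ end.

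For ABCC6 a short transcript of 714 bases at the 5′ end of the gene took 13.2 and 6.41% of the counts in Hep3B, and 22.2 and 28.6% in the knockout. In the siRNA libraries it took 15.9 to 24.6%. The full-length transcript was at 624 and 815 counts in Hep3B and 1711 and 729 in the knockout, so its counts overlapped between the groups. ABCC3 was carried at 91.7 to 98.3% by its full-length transcript in all 8 libraries. The 3 ABCB4 transcripts share the same ends, and 1 of them took from 0.01 to 94.6% of the gene's counts in different libraries, so their shares are not interpreted.

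Other genes of bile acid handling were counted from lists, which were also chosen with earlier results of these data known. Of 17 genes of bile acid synthesis and conjugation, 13 were tested in the knockout comparison, 12 had a log2 fold change above 0, and 2 rose, with a median of 1.11. Of all genes tested, 50.4% were above 0 and 4.5% were called higher. BAAT, which conjugates bile acids with glycine or taurine, was at 20.9 and 16.1 CPM in Hep3B and at 202 and 121 CPM in the knockout (log2 fold change 3.19, SE 0.42, adjusted p = 0.0152). AKR1C4, a liver steroid dehydrogenase, was at 0.259 and 0.148 CPM, or 5 and 3 counts, against 2.98 and 2.77 CPM (log2 fold change 3.85, SE 0.75, adjusted p = 0.0329). It passed the filter on low counts only through the knockout libraries. CYP7A1, the rate-limiting enzyme of the classical pathway, and CYP8B1 and CYP46A1 were in neither table.

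Of 31 other transporters, 22 were tested in the knockout, 12 were above 0 and 10 below, and 3 rose, with a median of 0.32. Of all genes tested, 50.4% were above 0 and 4.5% were called higher. SLC22A7 (OAT2, a hepatic organic anion carrier) had 1 and 0 counts in Hep3B and 180 and 40 in the knockout (adjusted p = 0.0250). It passed the filter on low counts only through the knockout libraries. The mean of its knockout libraries, 3.97 CPM, was 26.1-fold above a floor of 3 counts in each Hep3B library. SLC22A9 (OAT7, another hepatic organic anion carrier) was at 11.7 and 11.9 CPM against 80.6 and 32.4 CPM (adjusted p = 0.0419), and SLC22A18 at 7.92 and 17.4 CPM against 58.7 and 42.7 CPM (adjusted p = 0.0466). In each of them both knockout libraries lay above both Hep3B libraries, as they did for 28.5% of all genes tested.

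Of 23 regulators of these genes, such as nuclear receptors and liver transcription factors, 21 were tested, 15 were above 0 and 0 were called by edgeR, with a median of 0.42. An unadjusted p below 0.05 was reached by 8 of them and by 3752 of all 14415 genes tested. The regulators with the smallest p were VDR, the vitamin D receptor (log2 fold change 2.59, SE 0.72, adjusted p = 0.0769), and NR1H3, the oxysterol receptor LXR alpha (1.29, SE 0.38, adjusted p = 0.0860).

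Markers of hepatocytes and cholangiocytes were counted beside the transporters. Of all genes tested in the knockout comparison, 50.4% were above 0 and 4.5% were called higher. All 10 hepatocyte markers had a log2 fold change above 0 in the knockout, with a median of 1.53, and APOA1, TTR and FGB, which encode plasma proteins, rose (log2 fold changes 2.40, 3.14 and 2.53, adjusted p = 0.0413, 0.0223 and 0.0413). Of 10 cholangiocyte markers, 7 were tested, 6 were above 0, and MUC1, a membrane mucin, rose from 0.466 and 0.346 CPM to 4.53 and 5.04 CPM (log2 fold change 3.60, adjusted p = 0.0279). MUC1 passed the filter on low counts only through the knockout libraries. AQP1, a water channel with the next smallest p, was at 0.776 and 0.495 against 2.88 and 2.96 CPM (adjusted p = 0.0850). That list summed to 673 to 949 CPM in Hep3B, 986 to 1183 CPM in the knockout, 1183 to 1498 CPM with control siRNA and 1299 to 2112 CPM with STAT6 siRNA. SLC10A2 was in neither table and CFTR not in the siRNA table. The part of the cholangiocyte markers was not tested either. In bulk RNA, fewer cells with a transcript and less of it per cell cannot be told apart.

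With STAT6 siRNA, 0 genes of any of these lists were called by edgeR and 0 had an unadjusted p below 0.05 in the fit that ignores library number. Among the genes with the smallest p in each list were HSD3B7 and BAAT for bile acid synthesis (log2 fold changes 0.60 and -0.67), SLCO2A1 for other transporters (0.85), FOXA3 and CEBPA for regulators (0.67 and 0.51), SERPINA1 and APOA1 for hepatocytes (0.73 and 0.71), and KRT19 for cholangiocytes (0.43). All had adjusted p-values of 1.00. The summed hepatocyte markers were at 21010 to 21045 CPM with control siRNA and 25101 to 25665 CPM with STAT6 siRNA, without overlap.

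The genes most like SLCO1B1 and SLCO1B3 over the 8 libraries were found by the root mean square difference of centred log2 values among 13203 genes. For SLCO1B1 they were BAAT (0.513), SULT1E1, which sulfates estrogens (0.515), ERP27 (0.521), WDR72 (0.568) and KCND2 (0.575). SULT1E1, the second, was at 1.04 and 0.940 CPM in Hep3B, 14.0 and 5.24 in the knockout, 1.29 and 1.73 with control siRNA and 0.598 and 1.52 with STAT6 siRNA.

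For SLCO1B3 they were ARHGAP18 (0.316), KAT2B (0.341), TMEM27 (0.403), NCKAP5 (0.411) and LRRC7 (0.411). ARHGAP18 was at 78.4 and 18.2 CPM in Hep3B and at 279 and 83.8 CPM in the knockout, and its Hep3B libraries were far apart as well. Among the members themselves ABCC3 and ABCC6 were the closest pair (0.456), while SLCO1B1 and SLCO1B3 differed by 0.894 and SLCO1B3 and SLCO2B1 by 2.13, the widest of the 21 pairs. All of these points share their libraries and depth, and the differences are a description.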

How the data were processed

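Whole-transcriptome RNA sequencing of 8 Hep3B libraries was used. The authors deposited expected counts per RefSeq transcript, which are estimated read counts without normalization, and the submitters' processing notes name STAR, Partek and hg38 without roles or versions. Libraries were prepared with a stranded kit, and the strand setting of the counting is not given in the sources used here. The design had assumed counts. Here the expected counts of a gene's transcripts were added up and rounded.

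Each table was fitted with edgeR 4.0.16 under R 4.3.3, after filterByExpr and TMM normalization, by glmQLFit and glmQLFTest, and genes were called at a Benjamini-Hochberg adjusted p below 0.05. CPM used TMM factors of genes in both tables. DESeq2 1.42.0, other normalizations and filters, GC and length offsets (mgcv 1.9.3, GENCODE release 29), a replicate block and leaving out each library were alternatives. The fit was tested on simulated counts.

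The members and lists were chosen with earlier results of these data known. Named were the members, their copies and neighbours, SOX4 and STAT6, list genes with an adjusted p below 0.05 or the 2 smallest p in a list, and the 5 genes most like SLCO1B1 and SLCO1B3 (mean of at least 20 counts, pseudocount 0.1 CPM). Some items that this rule or the motif search would name are not reported here. NHERF1 was matched by its older symbol. ChIP-seq and other data were not analysed here.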

Additional observations from a re-analysis of the deposited data

How the results depend on the processing

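For SOX4 knockout, 849 genes and 2 members were called. The counts of genes were 2122 with DESeq2, 518 with at least 10 counts in every library, 438 in the fit of all 8 libraries, and from 21 to 2298 over fits that each lacked 1 library. Called members numbered 1 without a filter, 1 with at least 10 counts in every library, 1 in the fit of all 8 libraries and 1 with GC and length offsets, and 0 to 4 over fits that each lacked 1 library (4 without Hep3B library 1, which adds SLCO1B3 and ABCC3, 1 without Hep3B library 2, 0 without either knockout library). SLCO1B1 lost its call without a filter (adjusted p = 0.0517) and in the fit of all 8 libraries (0.0532), and SLCO2B1 with the offsets (0.0559), and SLCO1B1 could not be tested with at least 10 counts in every library. The log2 fold change was 2.80 to 4.79 for SLCO1B1 and 2.53 to 4.53 for SLCO2B1 over all alternatives, and adjusted p-values were 0.000912 to 0.341 and 3.76e-06 to 0.205. In the knockout, ABCC2 was -1.49 to 0.37 over fits lacking 1 library. In the siRNA comparison, ABCC3 turned to 0.085 with median-of-ratios factors, 0.067 with DESeq2 and 0.027 in the fit of all 8 libraries. Over fits lacking 1 library the siRNA log2 fold changes were -1.88 to 0.87 for SLCO1B3, -0.51 to 1.03 for SLCO2B1, -0.91 to 1.29 for ABCB4, -0.71 to -0.14 for ABCC2, -0.59 to 0.36 for ABCC3 and -0.24 to 0.85 for ABCC6. In each such fit the lone library was assumed to vary like the others. The cause of these shifts was not tested. No other alternative without the replicate block changed the direction or the call of a member, and glmQLFit with legacy = TRUE was the default and so equal to the values reported. With legacy = FALSE, an alternative added after seeing the data, 966 genes and 2 members were called.

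With the replicate block, 982 genes and 2 members were called in the knockout and 62 genes and 0 members in the siRNA comparison. With the block and the GC and length offsets these were 194 genes and 0 members, and 383 genes and 0 members. The block changed no other call of a member. Same-numbered libraries correlated in their deviations at -0.075 among Hep3B and knockout libraries and 0.899 among siRNA libraries, and with 2 pairs and no label to say so the libraries share only a number.

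The uptake for each 100 of export, as a mean of 2 libraries, was 3.97 in Hep3B, 19.3 in the knockout, 8.79 with control siRNA and 10.8 with STAT6 siRNA. Not divided by length it was 2.06, 12.1, 5.27 and 6.85, and without ABCC6 it was 5.62, 32.6, 15.0 and 19.6. Low counts limit SLCO1B1 and SLCO1B3, and 2 libraries per group limit every comparison.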
